A study of Mus musculus with 27 samples.

Results

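Lipid droplets are the fat stores of a cell, a core of neutral lipid within a coat of proteins. The perilipins form most of that coat: Plin1 and Plin4 are typical of adipocytes, Plin5 of tissues that burn fat, and Plin2 and Plin3 are found in most cells. Cidec lets droplets fuse into larger ones in fat cells, seipin (encoded by Bscl2) shapes droplets as they leave the endoplasmic reticulum, and the FIT proteins Fitm1 and Fitm2 take part in the first steps of their formation, Fitm1 mainly in muscle. The mRNA levels of these 9 genes (Plin1 to Plin5, Cidec, Bscl2, Fitm1 and Fitm2) were followed in C2C12 cells. They were taken by gene symbol, and all 9 had a row among the 24825 genes of the expression files.

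C2C12 is an established line of mouse myoblasts, muscle precursor cells that fuse into muscle fibers. The cells were control cells, cells expressing full-length NFIA, a transcription factor, or cells expressing the Δpro#3 mutant of NFIA, which lacks part of the C-terminal proline rich domain. Both forms of NFIA were introduced with retroviral vectors. Each was sampled at day 0, at day 7 of a hormonal cocktail that all cells received (isobutylmethylxanthine, indomethacin, dexamethasone, insulin, T3 and rosiglitazone, then insulin, T3 and rosiglitazone), and at day 7 after 10 µM forskolin for 4 h, a compound that raises cyclic AMP. There were 3 replicates in each of the 9 groups. Nothing in the labels says that replicates were separate cultures, so p-values measure the spread between these samples, which may be technical.

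The measure was FPKM, the number of fragments of polyadenylated RNA set against the length of the transcript and the depth of the library, so that levels can be compared between genes. Samples held 9567769 to 27230965 fragments. Nfia ran from 225 to 594 FPKM in the cells given either construct and from 0.0885 to 7.35 FPKM in control cells, the highest of which was replicate 2 at day 0. The 9 adipocyte markers together reached 12579 to 14097 FPKM in full-length NFIA-expressing cells at day 7, against 347 to 382 FPKM in control and 605 to 1933 FPKM in Δpro#3 mutant-expressing cells. Leptin, one of those markers, was at or near 0 in every group. The 7 markers of differentiated muscle summed at day 7 to 1762 to 2489 FPKM with full-length NFIA. The sums were 10098 to 11779 FPKM in control cells and 11480 to 12307 FPKM in Δpro#3 mutant-expressing cells. Between these 2, single markers went both ways. In the mean, Myog (489 against 1275 FPKM), Tnnt3 (931 against 1646) and Myh3 (239 against 291) were lower with the mutant than in control cells. Acta1 (4832 against 2825 FPKM), Actc1 (1338 against 916), Ckm (513 against 393) and Mylpf (3531 against 3376) were higher. Of the markers of other cell types, 3 endothelial genes summed to at most 1.39 FPKM and 4 macrophage genes to 2.02 to 26.6 FPKM. Of the latter, Cd68, a lysosomal protein, gave 1.99 to 26.4 FPKM, while Adgre1 and Ptprc were at most 0.0322 FPKM and Csf1r at most 0.273 FPKM. At day 7, Cd68 was at 15.2 to 15.9 FPKM in control cells, 9.65 to 10.9 FPKM with full-length NFIA and 7.71 to 9.78 FPKM with the mutant, and its part in the results was not tested. Among the 3 mutant samples at day 7, replicate 1 stood apart, with 8 of the 9 adipocyte markers and 9 of the 9 droplet genes at their highest there. After forskolin, these were 7 of 9 and 8 of 9. How many of all genes were highest in replicate 1 was not counted. In such bulk samples, fewer cells of a type and less RNA per cell cannot be told apart.

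**Figure D1:**
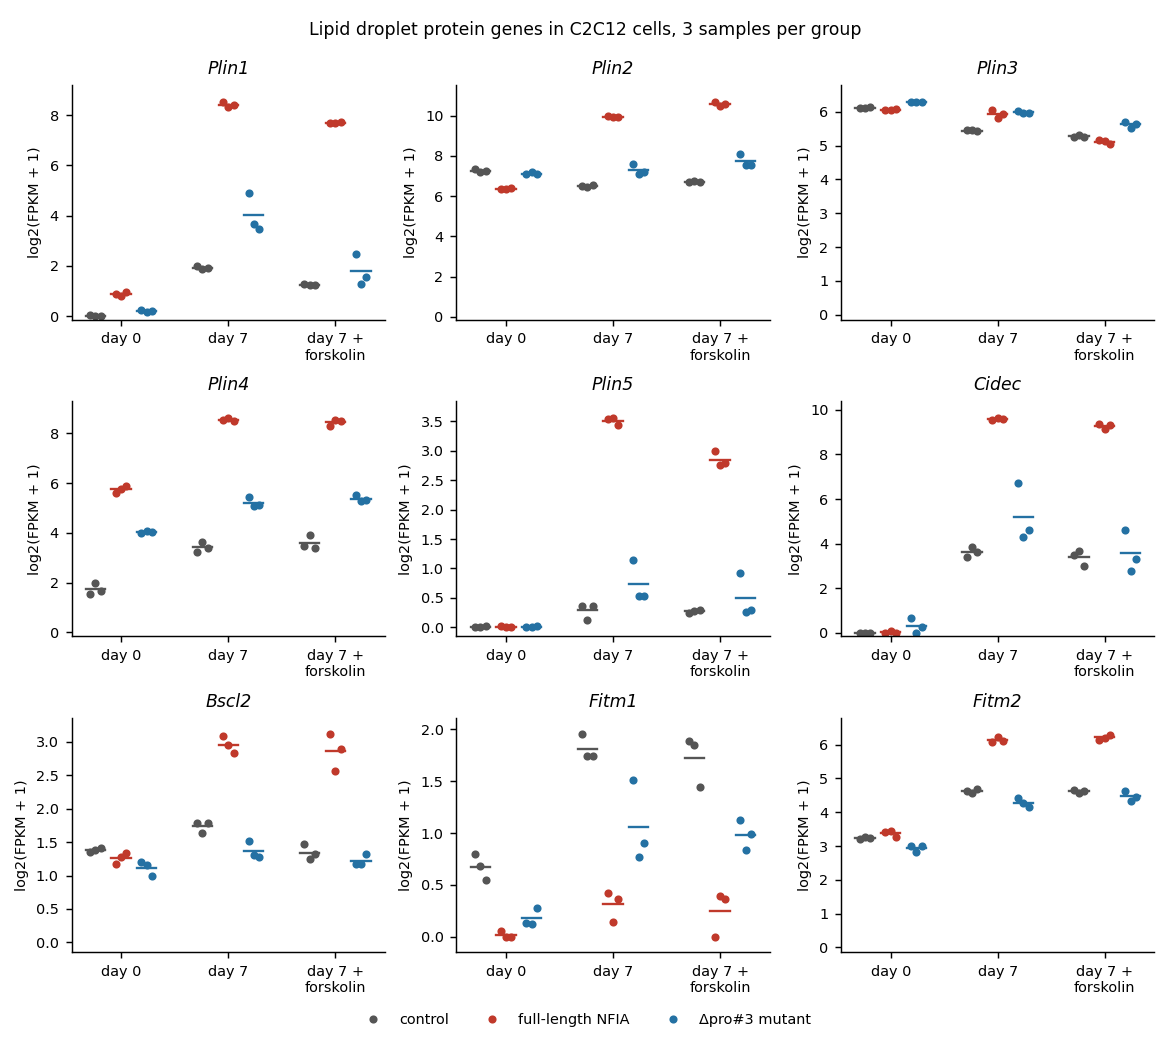
Level of each lipid droplet gene as log2(FPKM + 1), with 1 point per sample and a line at the mean of 3 samples, in control (grey), full-length NFIA-expressing (red) and Δpro#3 mutant-expressing (blue) cells at the 3 sampling points (day 0, day 7, and day 7 plus forskolin). At day 7, the red points lie above all others for Plin1, Plin2, Plin4, Plin5, Cidec, Bscl2 and Fitm2, and below all others for Fitm1.

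Full-length NFIA and control cells were compared first, to ask how the expressed factor changed the droplet genes at each time. Groups were compared with limma on log2(FPKM + 1), among genes with a mean of 0.5 FPKM or more. Log2 fold changes and calls of over 3-fold are on that scale, which understates the changes of low genes. Other folds are ratios of mean FPKM. At day 7, 8 of the 9 genes were higher and 1 was lower in full-length NFIA-expressing cells (adjusted p under 0.05), where 31.3% of all genes tested were higher and 41.1% lower. With a change of over 3-fold also required, 5 of the 9 were higher (Plin1, Plin2, Plin4, Plin5 and Cidec), against 4.87% of all genes tested, and none was lower. The median log2 fold change was 3.22 over the 9 genes and -0.08 over all genes. Adipocyte markers were higher and muscle markers lower in the same samples (above), and their part in these differences was not tested.

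Plin1, which guards the fat store of adipocytes against lipases, lies on chromosome 7 from 86866050 to 86877662 (mouse build NCBIM37, minus strand). At day 7, it had 368, 325 and 337 FPKM with full-length NFIA, 2.98, 2.64 and 2.76 FPKM in control cells and 28.7, 11.8 and 9.93 FPKM in Δpro#3 mutant-expressing cells. The 3 groups did not overlap. The mean was 123-fold higher with full-length NFIA than in control cells, at a log2 fold change of 6.50 (SE 0.29, adjusted p = 1.80e-08). At day 0, the gene was below the limit for testing, at 0.815, 0.724 and 0.922 FPKM with full-length NFIA (95 fragments), 0.191, 0.106 and 0.161 FPKM with the mutant (21 fragments) and 0.022, 0 and 0 FPKM in control cells (1 fragment). These groups too did not overlap, and each exact permutation test gave p = 0.1, the smallest that 3 against 3 samples allow. The ratio of full-length NFIA to control at day 0, with the fragments of each group pooled, was 118, with an exact 95% interval of 20.6 to 4697 for counting error only.

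Cidec (chromosome 6 from 113374628 to 113385754, minus strand), which controls droplet size, had no fragment in control cells at day 0. By day 7, control cells held 9.66, 13.5 and 11.3 FPKM, against the 0.0226 FPKM that 3 fragments in the day 0 group would have given. Full-length NFIA-expressing cells held 744, 783 and 770 FPKM at day 7, a mean 66.8-fold above that of control cells (log2 fold change 5.95, SE 0.50, adjusted p = 1.86e-06). At day 0, the same cells had 0, 0.0461 and 0 FPKM, from 2 fragments. The gene was thus close to 0 before differentiation in cells that already expressed full-length NFIA. The Δpro#3 mutant gave 105, 18.7 and 23.1 FPKM at day 7, all above control cells, and 0.584, 0 and 0.202 FPKM at day 0.

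Plin4 was well above the limit for testing at day 0 in all cells. It coats small droplets early in their growth and lies on chromosome 17 from 56240014 to 56249225, 1798 bases from Plin5 on the same minus strand. At day 0, it had 47.7, 53.7 and 57.7 FPKM with full-length NFIA, 15.2, 16.1 and 15.5 FPKM with the Δpro#3 mutant and 1.96, 2.93 and 2.13 FPKM in control cells. The groups were far apart for their spread. The adipocyte markers summed in the same order to 431 to 458, 318 to 335 and 40.5 to 49.1 FPKM, and their part was not tested. Most of each sum was Lpl, at means of 383, 298 and 34.6 FPKM. Fabp4, Pparg and Cebpa followed the same order, while Cd36 ran in the reverse order (0.0101, 0.160 and 0.550 FPKM). Adipoq was higher with the mutant (0.601 FPKM) than with full-length NFIA (0.273 FPKM), and Lep, Retn and Cfd were at or near 0. The log2 fold change of Plin4 against control cells was 4.02 (SE 0.10, adjusted p = 4.59e-11) with full-length NFIA and 2.32 (SE 0.10, adjusted p = 7.96e-09) with the mutant. Of the 5 genes tested at day 0 (Plin2, Plin3, Plin4, Bscl2 and Fitm2), 1 was higher and 2 were lower with full-length NFIA than in control cells (all genes, 37.7% and 35.6%), and Plin4 was the 1 over 3-fold higher (all genes, 2.46%). Fitm2 was also higher without full-length NFIA replicate 3 (0.20, adjusted p = 0.00886). With the mutant, 2 were higher and 3 lower than in control cells (all genes, 32.5% and 29.7%), with Plin4 again the 1 over 3-fold higher (all genes, 0.859%). One of those lower, Plin2 (-0.13, adjusted p = 0.0160), missed the test without control replicate 1 or mutant replicates 1 or 3 (adjusted p up to 0.0636). Between the constructs, 2 were higher and 2 lower with the mutant (all genes, 33.4% and 31.9%), and Plin4 was over 3-fold lower (-1.70, SE 0.10, adjusted p = 8.03e-08; all genes, 1.12%). At day 7, it reached 373, 388 and 364 FPKM with full-length NFIA against 8.32, 11.3 and 9.59 FPKM in control cells, 38.6-fold apart in the mean (log2 fold change 5.14, SE 0.11, adjusted p = 1.88e-10).

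Plin5, which links droplets to mitochondria in oxidative tissues, was the lowest perilipin in every group at day 7. It lies on chromosome 17 from 56251024 to 56257019. At day 0, each group held 1 fragment of it in all, so that no difference between constructs was detectable at this depth. At day 7, it had 10.7, 10.8 and 9.79 FPKM with full-length NFIA and 0.29, 0.0874 and 0.293 FPKM in control cells, the latter from 19 fragments. The samples did not overlap, and the log2 fold change was 3.22 (SE 0.16, adjusted p = 3.27e-08), for means 46.6-fold apart.

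Plin2, the perilipin of most cells and of lipid-loaded cells in general, went from lowest to highest with full-length NFIA. It lies on chromosome 4 from 86294290 to 86315964. At day 0, it had 79.6, 80.6 and 84.4 FPKM with full-length NFIA, 159, 147 and 149 FPKM in control cells and 135, 145 and 134 FPKM with the Δpro#3 mutant. It was lower with full-length NFIA than in control cells at that time (log2 fold change -0.88, SE 0.04, adjusted p = 7.22e-09), without reaching 3-fold. At day 7, the order was turned. Full-length NFIA-expressing cells had 1012, 986 and 963 FPKM, control cells 89.6, 84.9 and 92.1 FPKM, and the log2 fold change was 3.46 (SE 0.11, adjusted p = 1.37e-09).

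Plin3, which moves between the cytosol and newly formed droplets in many tissues, kept a narrow range. It lies on chromosome 17 from 56418385 to 56429934. Over the 27 samples, it stayed between 31.7 and 77.1 FPKM. At day 7, it had 65.1, 55.4 and 60.6 FPKM with full-length NFIA, 42.6, 42.5 and 42.4 FPKM in control cells and 64.1, 61.1 and 61.5 FPKM with the Δpro#3 mutant. Both constructs were above control cells in every sample, with log2 fold changes of 0.49 (SE 0.06, adjusted p = 2.99e-05) and 0.54 (SE 0.06, adjusted p = 6.39e-05). At day 0, the difference between full-length NFIA and control cells was -0.06 on the log2 scale (adjusted p = 0.0393), and it did not pass the test on leaving out any 1 of the 3 control samples or replicates 1 or 2 of full-length NFIA (adjusted p from 0.0564 to 0.122).

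Among the genes of droplet formation, Bscl2 and Fitm2 were higher with full-length NFIA than in control cells at day 7 and Fitm1 was lower. Bscl2 (chromosome 19 from 8911957 to 8923173) had 7.49, 6.7 and 6.08 FPKM with full-length NFIA, 2.45, 2.11 and 2.44 FPKM in control cells and 1.86, 1.46 and 1.41 FPKM with the Δpro#3 mutant. Its log2 fold change was 1.22 (SE 0.10, adjusted p = 1.22e-06), under 3-fold. Fitm2 (chromosome 2 from 163292115 to 163298365), the FIT protein of most tissues, had 67.2, 73.3 and 68.4 FPKM with full-length NFIA, 23.8, 22.9 and 25 FPKM in control cells and 20.3, 18.4 and 16.7 FPKM with the mutant. Its log2 fold change was 1.50 (SE 0.07, adjusted p = 3.01e-08), also under 3-fold. The mutant was below control cells for both (Bscl2 -0.37, adjusted p = 0.00929 and Fitm2 -0.36, adjusted p = 0.00249 on the log2 scale).

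Fitm1 (chromosome 14 from 56194511 to 56195789), the FIT protein of skeletal and heart muscle, ran the other way. At day 7, it had 2.88, 2.35 and 2.34 FPKM in control cells, 1.84, 0.7 and 0.867 FPKM with the Δpro#3 mutant and 0.344, 0.106 and 0.288 FPKM with full-length NFIA. The last value rested on 8 fragments over 3 samples, so no fold is given. The groups did not overlap, and both constructs were lower than control cells, with full-length NFIA at -1.50 on the log2 scale (SE 0.18, adjusted p = 2.41e-05) and the mutant at -0.75 (SE 0.18, adjusted p = 0.00539). At day 0, control cells had 0.74, 0.604 and 0.462 FPKM (42 fragments), the mutant 0.1, 0.0892 and 0.211 FPKM (9 fragments) and full-length NFIA 0.0428, 0 and 0 FPKM (1 fragment). Each pair of groups was apart at day 0, at p = 0.1 by the exact permutation test. The muscle markers summed at that time to 1053 to 1141 FPKM in control cells, 66.1 to 74.9 FPKM with the mutant and 6.38 to 8.33 FPKM with full-length NFIA, and their part in the level of Fitm1 was not tested.

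The bases before the start of transcription were read for 4 genes that moved together at day 7 (Plin1, Cidec, Plin4 and Plin5) and for Fitm1, which moved against them. All 9 genes had an entry in the RefSeq promoter table (GRCm38.p6, another build than the FPKM). Where a gene had several starts, the outermost was taken, and the 250 bases before it were read on the strand of the gene. Capitals mark 3 sets of letters, found on either strand: TTGGC, the core of the NFI site, AGGTCA, the core of the sites of nuclear receptors such as PPARγ, and CAGCTG, an E-box read by MyoD.
Plin1 (chr7:79732777-79733026, minus strand): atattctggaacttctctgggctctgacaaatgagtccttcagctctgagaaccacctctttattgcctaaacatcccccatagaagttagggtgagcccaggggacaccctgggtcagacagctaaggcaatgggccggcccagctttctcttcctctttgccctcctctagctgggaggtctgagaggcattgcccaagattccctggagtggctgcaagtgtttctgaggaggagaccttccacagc
Cidec (chr6:113435761-113436010, minus strand): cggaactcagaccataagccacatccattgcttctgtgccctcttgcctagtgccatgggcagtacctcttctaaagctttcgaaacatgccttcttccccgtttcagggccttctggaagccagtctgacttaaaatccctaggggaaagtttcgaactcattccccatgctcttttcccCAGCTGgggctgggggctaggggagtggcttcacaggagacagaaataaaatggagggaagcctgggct
Plin4 (chr17:56109783-56110032, minus strand): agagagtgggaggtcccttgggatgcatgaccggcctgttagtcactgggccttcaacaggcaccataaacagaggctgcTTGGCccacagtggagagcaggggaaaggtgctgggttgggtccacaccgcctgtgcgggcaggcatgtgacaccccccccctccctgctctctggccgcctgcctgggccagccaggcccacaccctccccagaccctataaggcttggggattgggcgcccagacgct
Plin5 (chr17:56117549-56117798, minus strand): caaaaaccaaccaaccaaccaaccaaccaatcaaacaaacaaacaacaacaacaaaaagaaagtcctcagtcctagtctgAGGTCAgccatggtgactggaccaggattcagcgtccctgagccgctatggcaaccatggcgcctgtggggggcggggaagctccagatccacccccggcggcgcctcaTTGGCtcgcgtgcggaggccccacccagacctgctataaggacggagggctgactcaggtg
Fitm1 (chr14:55575424-55575673, plus strand): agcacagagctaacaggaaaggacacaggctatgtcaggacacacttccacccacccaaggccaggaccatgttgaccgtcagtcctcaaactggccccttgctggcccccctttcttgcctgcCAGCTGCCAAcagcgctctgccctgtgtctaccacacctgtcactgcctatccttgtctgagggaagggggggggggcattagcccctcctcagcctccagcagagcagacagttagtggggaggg

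TTGGC was found once before Plin4 (first base at -170), Plin5 (-61), Fitm1 (-121, where it shares a single base with an E-box) and Plin3 (-74). That is in 4 of the 9 genes, while 41.5% of the 32851 windows of the table hold it. AGGTCA was found before Plin5 (-170) and Plin2 (-218), in 2 of 9 genes against 14.0% of windows, and CAGCTG before Cidec (-69), Fitm1 (-126) and Plin2 (-16), in 3 of 9 against 13.0%. The full NFI palindrome and the DR1 element of PPARγ, a direct repeat of its core, were found before none of the 9 genes, and before 0.0365% and 0.0335% of windows. The window of Plin1, the gene with the largest fold change between full-length NFIA and control cells at day 7, held none of these letters. The counts describe letters in short windows and do not show where a factor binds.

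**Figure D2:**
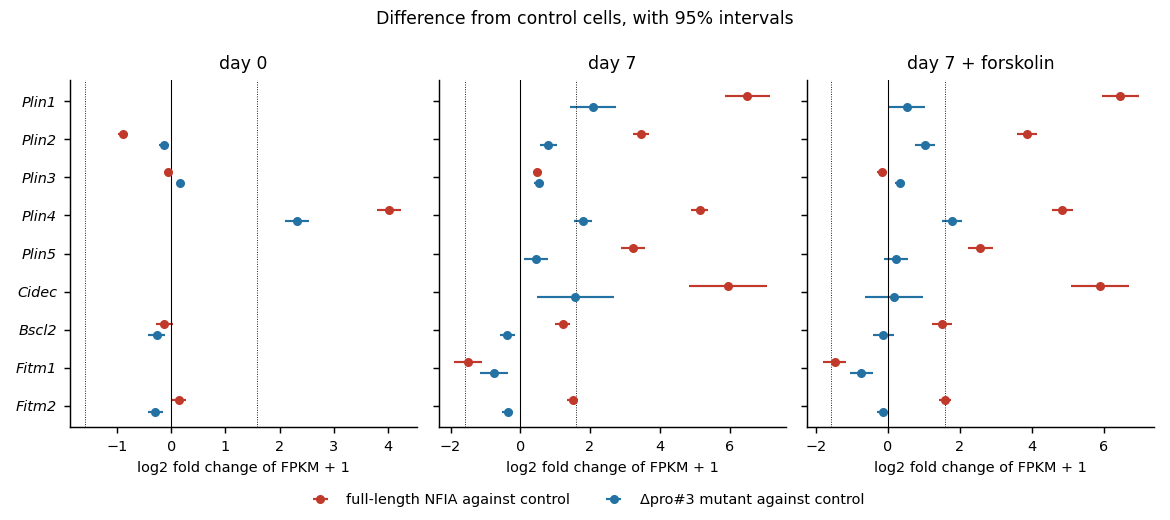
Log2 fold change of FPKM + 1 against control cells (x axis) for each lipid droplet gene, with full-length NFIA in red and the Δpro#3 mutant in blue, at the 3 sampling points (Plin1, Plin5, Cidec and Fitm1 were too low to be tested at day 0), with 95% intervals from limma as bars and dotted lines at 3-fold. At day 7, Plin1 and Plin4 lie beyond 3-fold for both constructs, and Fitm1 is the gene below 0 for full-length NFIA.

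The Δpro#3 mutant was then compared with full-length NFIA and with control cells, to ask which of these levels the shortened protein gave. At day 7, 1 of the 9 genes was higher and 7 were lower than with full-length NFIA (adjusted p under 0.05; all genes, 34.3% and 29.4%). All 7 were lower by more than 3-fold (Plin1, Plin2, Plin4, Plin5, Cidec, Bscl2 and Fitm2), where 3.7% of all genes tested were. The mutant mean was 4.89% of the full-length mean for Plin1 (replicates 2.89% to 8.36%), 6.40% for Cidec (2.44% to 13.8%), 6.74% for Plin5 (4.26% to 11.7%), 9.66% for Plin4 (8.73% to 11.3%) and 16.0% for Plin2 (14.0% to 19.4%). Bscl2 stood at 23.4% and Fitm2 at 26.5%. The call of Bscl2, at -1.59 on the log2 scale, lay at the 3-fold line and was lost on leaving out replicate 1 of full-length NFIA (-1.52) or replicates 2 or 3 of the mutant (-1.56 and -1.54).

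Plin3 was the gene without a detectable difference between the constructs at day 7. The log2 difference of the mutant from full-length NFIA was 0.05, with a 95% interval of -0.09 to 0.18 (adjusted p = 0.513). The mutant samples, at 61.1 to 64.1 FPKM, lay inside the range of full-length NFIA. Fitm1 was higher in the mutant than in the full-length samples (0.75, SE 0.18, adjusted p = 0.00383).

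Against control cells at day 7, 6 of the 9 genes were higher with the mutant and 3 were lower (adjusted p under 0.05), where 21.3% of all genes were higher and 27.5% lower. Of these, 2 were over 3-fold higher, Plin1 and Plin4, against 0.933% of all genes. Plin1 was 2.08 higher on the log2 scale (SE 0.29, adjusted p = 0.000273) and Plin4 1.79 (SE 0.11, adjusted p = 2.19e-06). Without any replicate 1 of the mutant, they were 1.64 and 1.68, still over 3-fold. Cidec was 1.58 higher (SE 0.50, adjusted p = 0.0240), and 0.82 without any replicate 1 of the mutant (adjusted p = 0.000716). It passed 3-fold without control replicate 2 (1.69) or mutant replicates 2 (2.03) or 3 (1.89), and missed the test without control replicates 1 or 3 (adjusted p = 0.0720 and 0.0605). One of the 6, Plin5, had means of 0.701 FPKM with the mutant and 0.223 FPKM in control cells, and passed the limit for testing only through full-length NFIA, so that the count is 5 without it and no test of it is drawn on. With all libraries, Plin2 was 0.81 higher (SE 0.11, adjusted p = 0.000190). Replicate 1 of the mutant also held the highest level of 8 of the 9 adipocyte markers, whose part in these differences was not tested. Both constructs were compared with the same control samples.

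The change from day 0 to day 7 was compared within each type of cell. The genes that rose and fell numbered 7 and 2 of 9 in control cells (all genes, 36% and 42.7%), 7 and 1 with full-length NFIA (33.2% and 46.5%) and 7 and 1 with the mutant (32.8% and 46.7%). Plin5 counts among those that rose in control and mutant-expressing cells although it passed the limit for testing only through full-length NFIA at day 7, and without it 6 rose in each. In full-length NFIA-expressing cells, 7 of the 9 genes rose by more than 3-fold, against 5.38% of all genes tested, while in control cells 3 did (Plin1, Plin4 and Cidec; all genes, 3.65%; Plin4 at 1.69, or 1.58 and under 3-fold without control day 7 replicate 2) and in Δpro#3 mutant-expressing cells 2 did (Plin1 and Cidec; all genes, 3.91%). Plin2 rose from a mean of 81.6 to 987 FPKM with full-length NFIA, 12.1-fold, and fell from 151 to 88.9 FPKM in control cells (log2 fold change -0.76, SE 0.09, adjusted p = 3.36e-07). In mutant-expressing cells, it went from 138 to 158 FPKM, with overlapping samples (0.18, 95% interval 0.00 to 0.36, adjusted p = 0.0640), and passed the test without day 7 replicates 2 (0.27, adjusted p = 0.00833) or 3 (0.24, adjusted p = 0.0292). Plin4 rose 7.07-fold with full-length NFIA, 4.16-fold in control and 2.32-fold in mutant-expressing cells. Plin3 fell in control cells (-0.68, SE 0.04, adjusted p = 3.14e-10) and in mutant-expressing cells (-0.30, SE 0.04, adjusted p = 1.07e-05). With full-length NFIA, it was -0.12 (adjusted p = 0.0179) as deposited and 0.02 after median-ratio scaling, a sign that depends on scaling, and it missed the test without day 0 replicate 3 (adjusted p = 0.0589) or day 7 replicate 2 (adjusted p = 0.131). Bscl2, which rose in mutant-expressing cells (0.25, adjusted p = 0.0129), missed it without day 0 replicate 3 or day 7 replicate 1 (adjusted p = 0.0772 each).

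Fitm2 rose in all cells over this time, 7.41-fold with full-length NFIA, 2.83-fold in control and 2.76-fold in mutant-expressing cells. The change was larger with full-length NFIA than in control cells by 1.37 on the log2 scale (SE 0.10, adjusted p = 2.35e-09), and it differed by -0.06 between mutant and control cells (95% interval -0.27 to 0.15, adjusted p = 0.642). Fitm1 rose in control cells from 0.602 to 2.52 FPKM, 4.19-fold in the mean and under 3-fold in FPKM + 1 (log2 fold change 1.14, SE 0.14, adjusted p = 1.41e-06). It also rose in mutant-expressing cells (0.88, SE 0.14, adjusted p = 2.76e-05). With full-length NFIA, both times lay below the limit for testing, at 1 fragment over the 3 samples at day 0 and 8 at day 7, a ratio of 11.96 over pooled fragments (exact 95% interval 1.60 to 531 for counting error only). The muscle markers of control cells summed to 1053 to 1141 FPKM at day 0 and 10098 to 11779 FPKM at day 7, and their part in the change of Fitm1 was not tested.

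The change over time was larger with full-length NFIA than in control cells for 8 of the 9 genes and smaller for Fitm1 (adjusted p under 0.05; all genes, 31.1% and 40.1%), and over 3-fold larger for 4 (Plin1, Plin2, Plin5 and Cidec; all genes, 4.53%). For Fitm1, the difference was -0.84 (adjusted p = 0.00137), and its sign turned to 0.48 with limma-voom on fragments, full-length NFIA having 1 fragment at day 0. Between the mutant and control cells, the change was larger for 4 and smaller for 1 (all genes, 18.9% and 25.9%), over 3-fold larger for Plin1 (1.89; all genes, 1.54%), and limma-voom on fragments turned that sign (-1.13). Plin5, one of those 4, was below the limit for testing over the groups compared, and the count is 3 without it. Fitm1 was also smaller without mutant day 7 replicate 1 (-0.48, adjusted p = 0.00863), and Cidec (1.27, adjusted p = 0.0811) also larger without mutant day 7 replicates 1 (0.51, adjusted p = 0.0492), 2 (1.72, 0.0131) or 3 (1.58, 0.0350). With all samples, limma-voom on fragments turned the signs of both differences. For Cidec, control cells had 0 fragments at day 0, so that its larger change holds only on the scale of FPKM + 1. Between the mutant and full-length NFIA, the change over time was larger for 1 and smaller for 8 (all genes, 33.9% and 29.5%), over 3-fold for 5 of them (all genes, 3.2%). Of the 5, Cidec (-4.66) and Plin1 (-3.76) missed the test with limma-voom on fragments (adjusted p = 0.143 and 0.0503). Plin4 (-1.65) was under 3-fold without full-length NFIA day 0 replicate 1 (-1.57) or mutant day 7 replicate 2 (-1.58). Fitm1, the 1 larger, was below the limit for testing over these groups (mean 0.383 FPKM), and passed it only through control cells, so that the count is 0 without it. Plin3 (-0.17) missed it without full-length NFIA day 0 replicate 1 (adjusted p = 0.0503), full-length NFIA day 7 replicate 1 (0.0656) or mutant day 7 replicate 2 (0.0505). For Plin2, the difference of full-length NFIA from control cells was 4.34 on the log2 scale (SE 0.12, adjusted p = 2.23e-14), and for Plin5 3.22 (SE 0.17, adjusted p = 6.38e-11). Plin4, already raised at day 0, had a difference of 1.12 (SE 0.16, adjusted p = 1.14e-05). For Plin1 (5.65) and Cidec (5.93), control cells had 1 and 0 fragments at day 0. For these genes, limma-voom on fragments gave 1.15 (adjusted p = 0.57) and 4.89 (adjusted p = 0.375), so these 2 calls hold on the scale of FPKM + 1 and were lost on the scale of fragments.

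The response to forskolin was taken up next, since cyclic AMP is the signal by which adipocytes are told to release fat. With forskolin, 7 of the 9 genes were higher and 2 lower with full-length NFIA than in control cells (all genes, 25.5% and 47%), and 6 were over 3-fold higher (all genes, 4.25%). These were the 5 of untreated cells and Fitm2 (1.59, SE 0.08, adjusted p = 1.25e-08), whose call was lost on leaving out control replicate 2 (1.57) or full-length NFIA replicate 3 (1.55). Bscl2 was also over 3-fold higher without full-length NFIA replicate 2 (1.66), and Fitm1 over 3-fold lower without control replicate 3 (-1.61). Median-ratio scaling moved the median of all genes in this comparison by 0.17 on the log2 scale. Plin3, at -0.16 as deposited (adjusted p = 0.0343), was then 0.03, and it kept its call on leaving out full-length NFIA replicate 1 and missed the test on leaving out any other of the 6 samples (adjusted p from 0.0557 to 0.128). Between the mutant and full-length NFIA, 2 were higher and 7 lower (all genes, 42% and 24.2%), and the 7 were more than 3-fold lower (all genes, 3.31%), with a shift of -0.12 under scaling, of which Bscl2 (-1.63) was under 3-fold without full-length NFIA replicate 1 (-1.51). Between the mutant and control cells, 3 were higher and 1 lower (all genes, 19.5% and 27.1%), and 1 was over 3-fold higher, Plin4 (all genes, 0.866%). Fitm2 was also lower without mutant replicate 1 (-0.22, adjusted p = 0.0229), and Plin1 also higher without mutant replicate 2 (0.78, adjusted p = 0.0126). For Cidec, the mutant differed from control cells by 0.17 (95% interval -0.63 to 0.97, adjusted p = 0.733), and by -0.35 without replicate 1.

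Forskolin itself raised Plin2 and lowered Plin1, Plin3 and Plin5 in full-length NFIA-expressing cells, all by less than 3-fold. In total, 1 of the 9 genes rose and 3 fell (adjusted p under 0.05), where 13.9% of all genes rose and 41.5% fell. Plin2 went from 1012, 986 and 963 to 1623, 1435 and 1543 FPKM, the highest of any droplet gene in any sample (log2 fold change 0.63, SE 0.12, adjusted p = 0.000435). Plin3 went from 65.1, 55.4 and 60.6 to 35.1, 34.1 and 31.7 FPKM (-0.82, SE 0.06, adjusted p = 9.83e-09). Plin5 went from 10.7, 10.8 and 9.79 to 6.98, 5.75 and 5.93 FPKM (-0.66, SE 0.17, adjusted p = 0.00301). Plin1 went from 368, 325 and 337 to 209, 204 and 209 FPKM (-0.72, SE 0.29, adjusted p = 0.0447). None of these 4 genes had overlapping samples, and the share of all genes without overlap was not counted. The median of all genes shifted by 0.13 under median-ratio scaling, and the adjusted p of Plin1 was then 0.107. Leaving out any 1 of the 6 samples also ended the call of Plin1 (adjusted p from 0.0687 to 0.107). It was 2.57e-07 in a fit without the samples of the mutant, whose spread the other fit shares.

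With all libraries in the fit, 1 of the 9 genes passed the test of forskolin in control cells, Bscl2, which fell by 0.39 on the log2 scale (SE 0.12, adjusted p = 0.0246; all genes lower, 13.5%). Its samples went from 2.45, 2.11 and 2.44 to 1.76, 1.37 and 1.49 FPKM. The call was lost in 4 of 6 cases on leaving out 1 sample, without untreated replicates 1 (adjusted p = 0.0837) or 3 (0.0733) or forskolin replicates 2 (0.0976) or 3 (0.0715). Plin1 had 1.40, 1.35 and 1.35 FPKM after forskolin, below each of the untreated control samples, at -0.68 (adjusted p = 0.117 with all libraries and 2.06e-06 without the mutant samples in the fit). The control samples with and without forskolin were also apart for Plin2 (0.22, adjusted p = 0.248) and Plin3 (-0.17, adjusted p = 0.0514). Without any replicate 1 of the mutant, whose spread the fit shares, Plin1, Plin2 and Plin3 all passed (adjusted p = 1.01e-05, 0.00697 and 0.0421). In Δpro#3 mutant-expressing cells, Plin1 went from 28.7, 11.8 and 9.93 to 4.62, 1.43 and 1.95 FPKM (-2.23, SE 0.29, adjusted p = 1.96e-05). Cidec went from 105, 18.7 and 23.1 to 23.4, 5.91 and 8.81 FPKM (-1.64, SE 0.48, adjusted p = 0.0144). The samples with and without forskolin were apart for Plin1 and overlapped for Cidec, and these were the 2 genes of 9 more than 3-fold lower (all genes, 0.131%). Cidec missed the test without mutant day 7 replicate 1 (-0.88, adjusted p = 0.0707), forskolin replicate 2 (-1.26, 0.0809) or forskolin replicate 3 (-1.51, 0.0523). Without any replicate 1 of the mutant, Plin1 was -2.14 and Cidec -1.40, which is under 3-fold. In all, 1 of the 9 genes rose and 3 fell in these cells (all genes, 11.9% and 23.9%). Fitm2 also rose without day 7 replicate 1 (0.27, adjusted p = 0.0187) or forskolin replicate 2 (0.26, adjusted p = 0.0212). Plin5 was at -0.45 without forskolin replicate 1 (adjusted p = 0.0284). It then rested on 0.204 and 0.232 FPKM in forskolin replicates 2 and 3 (7 and 12 fragments). These values lie below the limit for testing, so that this p is not drawn on. Plin3 fell (-0.36, SE 0.06, adjusted p = 0.000180). Plin2 rose (0.44, SE 0.12, adjusted p = 0.0121) with overlapping samples, and missed the test without day 7 replicate 2 (0.35, adjusted p = 0.0592) or forskolin replicate 1 (0.26, adjusted p = 0.0606).

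**Figure D3:**
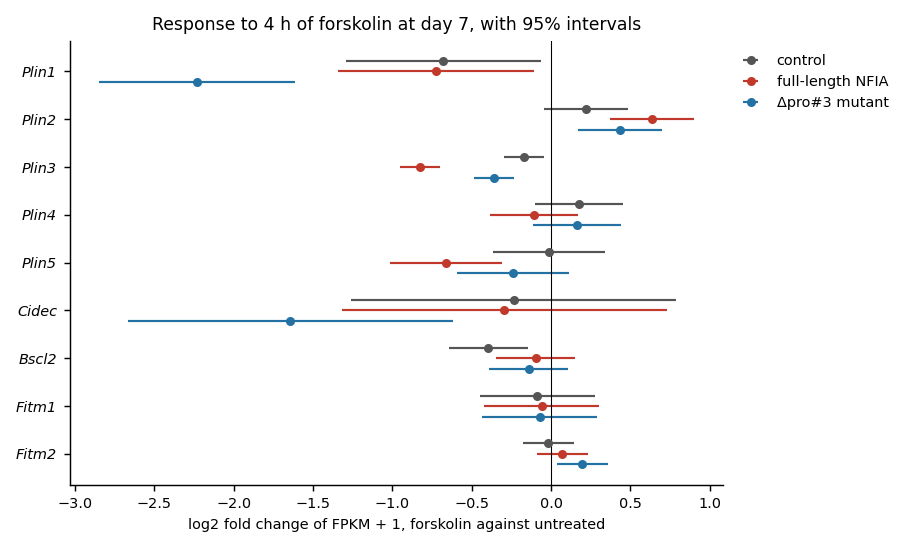
Log2 fold change of FPKM + 1 between forskolin and no forskolin at day 7 (x axis) for each lipid droplet gene in control (grey), full-length NFIA-expressing (red) and Δpro#3 mutant-expressing (blue) cells, with 95% intervals from limma over 3 samples per group as bars. Plin2 lies above 0 and Plin3 below 0 with full-length NFIA, at 0.63 and -0.82, and the lowest point is Plin1 with the mutant, at -2.23.

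Whether the forskolin response differed between cells was tested by the difference of the responses. It passed for 2 of 9 genes between full-length NFIA and control cells, both lower (all genes, 21.5%), for 1 between the mutant and control cells, also lower (2.5%), and for 1 higher and 1 lower between the mutant and full-length NFIA (15.8% and 5.88%). For Plin3, the fall was larger with full-length NFIA than in control cells by 0.65 on the log2 scale (the difference was -0.65, SE 0.08, adjusted p = 2.36e-05) and than with the mutant (difference 0.46, SE 0.08, adjusted p = 0.000933). For Plin1, the mutant had a larger fall than full-length NFIA (-1.51, SE 0.41, adjusted p = 0.0151) and than control cells (-1.55, SE 0.41, adjusted p = 0.0390), the latter with an adjusted p of 0.178 by limma-voom and lost in 9 of 12 cases on leaving out 1 sample (adjusted p from 0.0502 to 0.105). For Plin5, full-length NFIA and control cells differed by -0.65 (SE 0.24, adjusted p = 0.0477), which missed the test after median-ratio scaling (-0.54, adjusted p = 0.104), by limma-voom (adjusted p = 0.362) and on leaving out 1 sample in 11 of 12 cases. For Plin2, they differed by 0.41 (SE 0.18, adjusted p = 0.0876), and the adjusted p was 0.00210 without the mutant samples in the fit. No difference reached 3-fold with all samples, and those of Plin1 from control and full-length NFIA did without mutant day 7 replicates 2 (-1.72 and -1.67) or 3 (-1.83 and -1.79) or forskolin replicate 1 (-1.91 and -1.86). The difference of Cidec between the mutant and full-length NFIA (-1.35, adjusted p = 0.177) passed at -1.87 without mutant forskolin replicate 1 (adjusted p = 0.0444). Without any replicate 1 of the mutant, it was -1.11 (adjusted p = 0.00622), and that from control cells -1.17 (adjusted p = 0.0132). In full-length NFIA-expressing cells, Plin4 (-0.11, 95% interval -0.39 to 0.17), Cidec (-0.29, interval -1.32 to 0.73) and Fitm2 (0.07, interval -0.09 to 0.23) did not pass the test of the forskolin response.

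The make-up of the perilipin coat at the mRNA level followed from these levels. The 5 perilipins summed to 222 ± 5.94 FPKM in control cells and 201 ± 8.58 FPKM with full-length NFIA at day 0 (SD, n = 3 each), and to 144 ± 2.85 and 1776 ± 48.2 FPKM at day 7. Plin2 was the largest share in each of the 9 groups, from 40.6% ± 0.604 (full-length NFIA, day 0) to 72.0% ± 1.96 (full-length NFIA, day 7 with forskolin). In full-length NFIA-expressing cells, Plin3 went from 32.7% ± 0.843 of the sum at day 0 to 3.40% ± 0.227 at day 7, and Plin1 went from 0.408% ± 0.0409 to 19.3% ± 0.859. In control cells at day 7, Plin3 was 29.5% ± 0.658 and Plin1 1.94% ± 0.117. The Δpro#3 mutant lay between, with Plin3 at 23.1% ± 3.07 and Plin1 at 5.85% ± 2.54. After forskolin, Plin1 was 9.75% ± 0.232 of the sum with full-length NFIA, below the 18.4% of the lowest untreated sample.

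**Figure D4:**
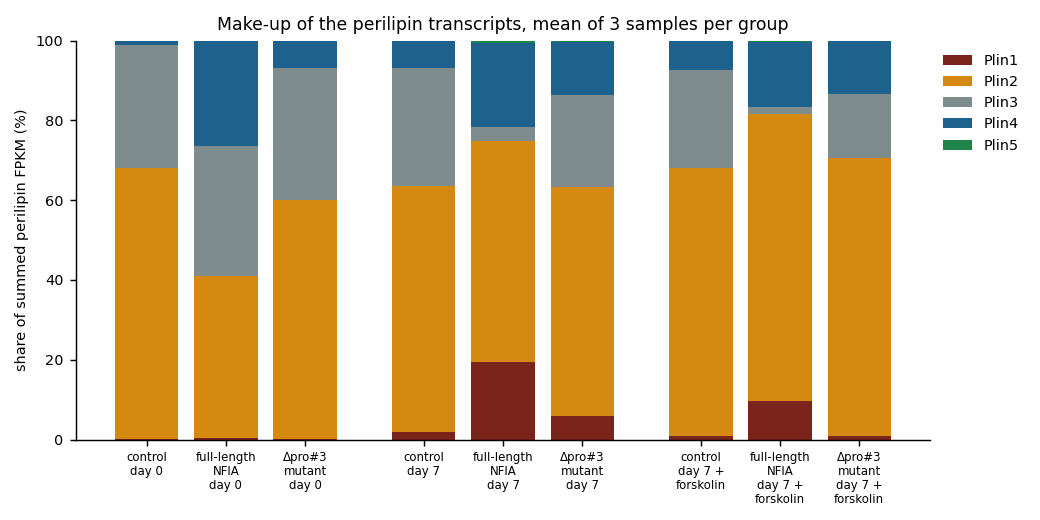
Share of each of the 5 perilipins in their summed FPKM (y axis, percent), as the mean of 3 samples in each of the 9 groups. Plin2 (orange) is the largest share throughout, and Plin3 (grey) takes 3.40% with full-length NFIA at day 7 against 29.5% in control cells.

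Other genes of the droplet were read from a list of lipases, lipid synthesis enzymes and droplet surface proteins. At day 7, 19 of the 25 tested were higher with full-length NFIA than in control cells and 5 were lower (all genes, 31.3% and 41.1%), and 12 were over 3-fold higher (all genes, 4.87%). Their median log2 fold change was 1.18. By size, the first 8 were Mgll (5.62), which splits monoacylglycerol, Dgat2 (5.42), which makes triglyceride, Agpat2 (4.86), an enzyme of phosphatidic acid synthesis, Lipe (4.61), the hormone-sensitive lipase, Cidea (4.58), a droplet protein of brown fat related to Cidec, G0s2 (4.15), an inhibitor of adipose triglyceride lipase, Pnpla2 (4.04), that lipase itself, and Dgat1 (3.04). All had adjusted p-values of at most 7.85e-08. Pnpla2 had 469 ± 10.8 FPKM against 27.5 ± 2.17, and its inhibitor G0s2 had 918 ± 48.8 against 50.7 ± 2.56 FPKM (SD, n = 3 each). With the mutant against control cells, 13 of the 25 were higher and 3 lower (all genes, 21.3% and 27.5%). Of these, 2 were over 3-fold higher, Dgat2 and Mgll (all genes, 0.933%). Their mutant samples ran from 19.5 to 30.9 FPKM (median 21.8) for Dgat2 and from 4.07 to 8.77 FPKM (median 4.27) for Mgll. Control means were 7.17 and 0.606 FPKM. Whether these 2 calls held on leaving out samples is not reported here.

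After forskolin in full-length NFIA-expressing cells, 5 of the 24 tested rose and 11 fell (all genes, 13.9% and 41.5%), and 3 passed 3-fold (all genes, 0.596% higher and 0.147% lower). Dgat1 rose by 1.93 and Hilpda, a lipase inhibitor of hypoxic cells, by 1.86 on the log2 scale, and G0s2 fell by 2.01 (adjusted p of at most 4.63e-09 for the 3 genes). Dgat1 went from 132 ± 3.67 to 508 ± 37.8 FPKM and G0s2 from 918 ± 48.8 to 227 ± 13.5 FPKM (SD, n = 3 each).

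Over the 9 groups, each droplet gene was placed by the order of its means. Plin1, Plin5 and Cidec shared the same top order, full-length NFIA at day 7, then full-length NFIA with forskolin, then the mutant at day 7, whose samples lay below both. For Plin2 the first and second places were exchanged, and for Plin4, Bscl2 and Fitm2 the samples of these first places overlapped. For Plin3, the highest was the mutant at day 0 and the lowest full-length NFIA with forskolin, and for Fitm1 the highest was control at day 7, whose samples overlapped those of control with forskolin.

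The genes most like them over the 9 group means were named from 6435 genes with a mean of 1 FPKM or more and means that ranged over more than 1 on the log2 scale. For Plin1, they were Slc36a2 (Pearson r = 0.997), Retn (0.993) and Sult1a1 (0.991), for Cidec Adipoq (0.997), Reep6 (0.993) and Pcx (0.992), and for Plin5 Lgals12 (0.997), Aldh3b2 (0.996) and Agpat2 (0.995). Retn and Adipoq are adipocyte hormones and are in the adipocyte marker list. For Plin2, they included Aifm2 (0.985) and Snrk (0.981). Plin4 was most like Wfdc21 (0.988), Fitm2 most like Clpp (0.992), Fitm1 most like Hsf2 (0.991) and Plin3 most like Ulk2 (0.980). These values describe 9 means of the same libraries and were not tested.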

How the data were processed

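Polyadenylated RNA of 27 C2C12 samples was sequenced from stranded libraries. The authors aligned reads to mm9 with STAR 2.5.3a, kept uniquely mapped fragments on the matched strand and deposited FPKM per gene without further scaling or logs. Fragments recomputed from the deposited FPKM were all within 0.1 of a whole number. Groups came from the sample labels. limma 3.58.1 (R 4.3.3) with an intensity trend was fitted to log2(FPKM + 1) for genes with a mean of at least 0.5 FPKM, over the 9 samples of a time point or the 18 of 2 time points, with Benjamini-Hochberg adjustment over all genes tested. Calls of over 3-fold also needed an adjusted p under 0.05. Genes below the limit were tested by a two-sided exact permutation test. Intervals are at 95%. Tables and figures were made with Python 3.11.15, pandas 2.3.3, scipy 1.17.1 and matplotlib 3.10.9. The 9 genes, the other droplet genes and the marker lists were chosen with earlier results of these data known. Other droplet genes were named as the 8 with the largest fold change among those called at day 7, and after forskolin as all those called. Alternatives were another pseudocount, filter, scaling, fit, limma-voom on fragments, a replicate block and leaving out each sample. Fits without replicate 1 of the mutant, and without all mutant samples, were added after the data were seen. Some of the genes most like Plin2 and Bscl2 over the group means are not reported here.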

Additional observations from a re-analysis of the deposited data

Results flagged for a closer look

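The values here are differences of log2 changes with an adjusted p under 0.05 by limma for the difference between cells. From day 0 to day 7, the change with full-length NFIA exceeded that of control cells by 4.34 for Plin2, 3.22 for Plin5, 1.37 for Fitm2, 1.34 for Bscl2, 1.12 for Plin4 and 0.56 for Plin3. The differences of 5.93 for Cidec, 5.65 for Plin1 and -0.84 for Fitm1 were lost with limma-voom on fragments (adjusted p = 0.375, 0.57 and 0.6, the last with its sign turned). The change with the Δpro#3 mutant differed from that of control cells by 0.94 for Plin2, 0.38 for Plin3, -0.53 for Plin4 and 1.89 for Plin1. The value of Plin1 was 1.45 without mutant day 7 replicate 1, and its sign turned by limma-voom (-1.13, adjusted p = 0.66). The mutant differed from full-length NFIA by -3.40 for Plin2, -2.77 for Plin5, -1.65 for Plin4, -1.45 for Bscl2, -1.43 for Fitm2 and -0.17 for Plin3, the last lost in 3 of 12 cases on leaving out 1 sample. Those of -4.66 for Cidec and -3.76 for Plin1 were lost by limma-voom (adjusted p = 0.143 and 0.0503). In 2 cases the groups compared were on average below the limit for testing, so that the p is not drawn on. These were Plin5 between the mutant and control cells (0.45, lost in 8 of 12 cases on leaving out 1 sample) and Fitm1 between the mutant and full-length NFIA (0.59, lost in 1 of 12 cases).

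In the forskolin response, full-length NFIA differed from control cells by -0.65 for Plin3. The difference of -0.65 for Plin5 was lost in 11 of 12 cases on leaving out 1 sample, after median-ratio scaling (adjusted p = 0.104) and by limma-voom (adjusted p = 0.362). The mutant differed from control cells by -1.55 for Plin1, lost in 9 of 12 cases, and from full-length NFIA by -1.51 for Plin1 and 0.46 for Plin3.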

How the results depend on the processing

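The results held calls near a threshold, low fragment numbers at day 0 and the spread of the Δpro#3 mutant at day 7. Their part in the changes below was not tested. The replicate block changed no count of genes over 3-fold. It ended the call of Plin3 between full-length NFIA and control cells at day 0 (adjusted p = 0.0525). Deviations of same-numbered samples of different groups correlated at -0.0696 to 0.0786 at day 0 (mean 0.00825). Over day 7 and forskolin, they ran from -0.187 to 0.352 (mean 0.0170). Not every pair deviated together, and the numbers were not taken to pair the samples. These values mix pairs within and between constructs, and the block is shared by all constructs. Replicate 1 of the mutant was highest for 9 of 9 droplet genes at day 7 and 8 of 9 after forskolin. Whether the mutant samples were paired was not tested. Under the block, the forskolin difference of Plin2 between full-length NFIA and control cells passed the test (adjusted p = 0.0486). So did the forskolin response of Plin3 in control cells (0.0380). The change of Fitm1 over time with full-length NFIA also passed (0.0385). Its mean over these groups was 0.130 FPKM, below the limit for testing, so that this p is not drawn on. Genes over 3-fold from day 0 to day 7 numbered 5 by limma-voom in control cells (3 as reported), and 4 by limma-voom and 4 with a pseudocount of 0.1 in mutant-expressing cells (2 as reported). For the difference of that change between mutant and control cells, 1 gene was over 3-fold as reported, 0 with a pseudocount of 0.1, 0 by limma-voom and 0 to 2 on leaving out samples. Leaving out samples gave 1 to 2 genes for forskolin in mutant-expressing cells, 0 to 1 for its difference between mutant and control cells and 0 to 2 for that between mutant and full-length NFIA, which was 1 with a pseudocount of 0.1, 1 after scaling and 1 by limma-voom (0 as reported). Signs turned after median-ratio scaling for Plin3 between full-length NFIA and control cells with forskolin (0.0263) and over time with full-length NFIA (0.0247), and for the forskolin response of Fitm2 in control cells (0.0367) and of Bscl2 (0.0246) and Plin4 (0.0307) with full-length NFIA. With a pseudocount of 0.1, they turned for the forskolin response of Plin5 in control cells (0.000606) and the time difference of Fitm1 between mutant and control cells (0.42). By limma-voom, they turned for the forskolin response of Plin5 in control cells (0.0725) and Fitm1 in mutant-expressing cells (0.0166), its mutant and full-length difference for Plin5 (-0.0248), and the time differences from control cells of Fitm1 with full-length NFIA (0.48) and of Cidec (-1.78), Fitm1 (0.66) and Plin1 (-1.13) with the mutant. Leaving out samples moved the difference of mutant and full-length NFIA in Plin3 at day 7 from -0.0123 to 0.102, that of mutant and control in Cidec after forskolin from -0.35 to 0.56, and the forskolin responses of Fitm1 from -0.166 to 0.0538 (control), -0.143 to 0.0669 (full-length NFIA) and -0.218 to 0.152 (mutant), of Fitm2 (control) from -0.0454 to 0.0162, of Plin5 (control) from -0.0975 to 0.0273 and of Bscl2 (full-length NFIA) from -0.223 to 0.0519. The causes were not tested.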
